A study of Mus musculus with 6 samples.

Results

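The macrophage at the centre of the erythroblastic island, the cell that feeds maturing red cell precursors and takes up the nuclei they expel, was followed here through 10 genes: Spic, Timd4, Vcam1, Marco, Cd5l, C1qa, C1qb, C1qc, Mertk and Dnase2a. They were picked by name, with earlier results of these data known, and all 10 of 10 were found among the 23279 genes measured. RNA of whole mouse fetal liver from embryonic day 11.5 was hybridised to 6 Affymetrix arrays, 3 of livers labelled Stab2Cre;Gata4 knockout and 3 of control livers labelled Stab2Cre;Gata4 heterozygous. The cross, Stab2-Cre tg/wt;Gata4 fl/wt with Gata4 fl/fl, uses the floxed allele Gata4tm1.1Sad, and the title given to both groups names the Cre, so the controls would share the transgene and differ in the second Gata4 allele. Stab2, whose promoter drives the Cre, is a scavenger receptor of sinusoidal endothelium. Replicates are labelled biological, and it is unknown here whether 1 array held 1 embryo or several, so p-values measure the spread between these arrays, which may be that of embryos or of pools.

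In the fetal liver, red cell precursors mature in clusters around a central macrophage. They are held there by adhesion molecules such as VCAM1 on the macrophage, which binds the integrin VLA-4 on the erythroblast, and they lose their nucleus shortly before leaving. The macrophage recognises phosphatidylserine on the expelled nucleus, engulfs it through receptors such as MERTK, and digests its DNA in lysosomes with DNase II alpha, the product of Dnase2a. Spic encodes an ETS-family transcription factor that macrophages engaged in iron recycling require and that heme induces. CD5L and the 3 chains of C1q are secreted by tissue macrophages, and C1q also tags dying cells for uptake.

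All values are log2 expression values normalised by the authors so that each array has the same distribution, with a median of 5.43 and a lower quartile of 3.72. The group means of the liver markers Alb, Afp and Ttr lay between 12.2 and 13.5. Gata4 itself averaged 9.91 in the controls and 10.42 in the livers labelled knockout, higher and not lower, so it did not check the labels, and directions below rest on them. Xist was high, at 10.2 to 10.7, in all livers labelled knockout and also in control replicate 2, but 3.58 and 3.96 in control replicates 1 and 3, where the Y-linked gene Uty read 8.18 and 8.15. The difference of each of the 10 genes is therefore also given against control replicate 2 alone, the one control with the same Xist state.

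Of the 10 island macrophage genes, 7 fell past the threshold (limma adjusted p under 0.05 over all genes) in the livers labelled knockout, 0 rose and 3 did not pass. Across all genes, 6.36% passed that threshold, 2.77% lower and 3.59% higher. Spic, Timd4, Cd5l, C1qc, C1qb, Marco and C1qa fell, from 3.49-fold for Spic to 1.53-fold for C1qa. The nuclease gene Dnase2a and the engulfment receptor gene Mertk read lower without passing, and the adhesion gene Vcam1 was the 1 member with a positive difference, also without passing. The median log2 fold change of the 10 genes was −1.19, and −0.93 against control replicate 2 alone, while the median over all genes tested was −0.01. For each of the 10 the control arrays and the arrays labelled knockout were apart, which was so for 27.3% of all genes, 14.3% in the lower direction and 13% in the higher.

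**Figure D1:**
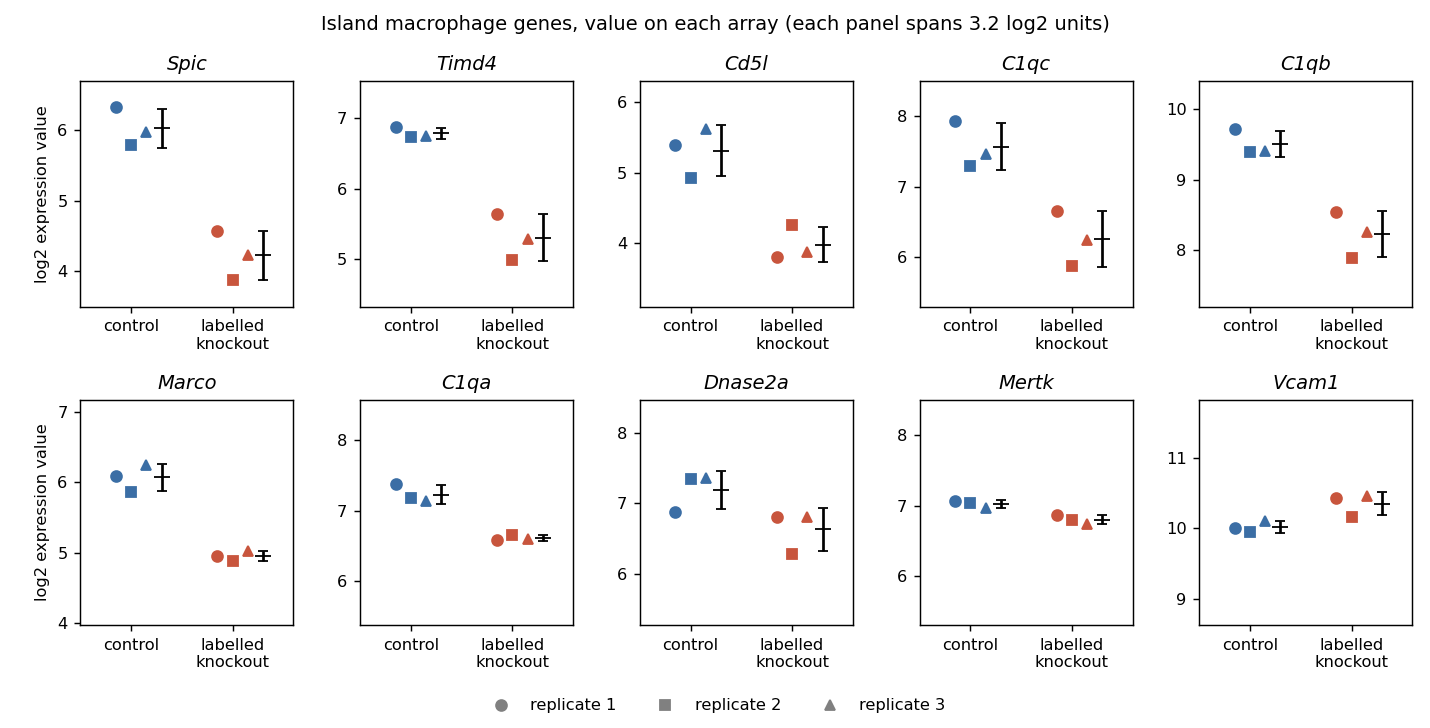
Log2 expression value of each gene on each of the 6 arrays (y axis, 3.2 log2 units in every panel), with circles, squares and triangles for replicates 1, 2 and 3 and a black bar for the mean ± SD (n = 3). The groups are apart in all 10 panels, widely for Spic and narrowly for Dnase2a, Mertk and Vcam1.

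The stretches upstream of the genes are shown as a description, and their link with the unequal changes was not tested. For 8 of the 10, a promoter was in the RefSeq table of GRCm38.p6, and its 250 bases before the start were searched on both strands for 5 motifs. GAGGAA is a core read by PU.1 and related ETS factors, and TGCTGA is the core of a MAF recognition element. The GATA motif was searched as AGATAA, the E-box by the letters CACGTG, and the AP-1 motif by the letters TGACTCA. None of these motifs is contained in another. The 5 stretches below run 5′ to 3′ on the strand of the gene, with GAGGAA and TGCTGA matches, or their reverse complements, in capitals. They are Spic, with the largest fall, Cd5l, in which both motifs occur, the neighbouring C1qb and C1qc, and Mertk, which did not pass. Their positions are chr10:88683024-88683273 (minus strand) for Spic, chr3:87357631-87357880 (plus strand) for Cd5l, chr4:136886201-136886450 (minus strand) for C1qb, chr4:136892915-136893164 (minus strand) for C1qc and chr2:128698665-128698914 (plus strand) for Mertk.
Spic: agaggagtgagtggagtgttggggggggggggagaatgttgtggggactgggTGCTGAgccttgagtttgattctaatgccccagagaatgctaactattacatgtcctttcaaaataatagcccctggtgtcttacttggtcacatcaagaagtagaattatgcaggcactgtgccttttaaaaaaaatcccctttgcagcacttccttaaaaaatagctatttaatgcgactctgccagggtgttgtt
Cd5l: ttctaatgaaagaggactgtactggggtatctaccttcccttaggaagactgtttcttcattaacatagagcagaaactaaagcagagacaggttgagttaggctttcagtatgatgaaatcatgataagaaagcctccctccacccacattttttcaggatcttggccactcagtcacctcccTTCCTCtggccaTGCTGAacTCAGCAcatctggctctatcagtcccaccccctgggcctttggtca
C1qb: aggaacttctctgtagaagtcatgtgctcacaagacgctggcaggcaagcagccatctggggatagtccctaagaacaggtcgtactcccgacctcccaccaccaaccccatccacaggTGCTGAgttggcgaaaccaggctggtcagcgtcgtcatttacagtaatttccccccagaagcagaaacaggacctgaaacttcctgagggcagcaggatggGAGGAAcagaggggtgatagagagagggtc
C1qc: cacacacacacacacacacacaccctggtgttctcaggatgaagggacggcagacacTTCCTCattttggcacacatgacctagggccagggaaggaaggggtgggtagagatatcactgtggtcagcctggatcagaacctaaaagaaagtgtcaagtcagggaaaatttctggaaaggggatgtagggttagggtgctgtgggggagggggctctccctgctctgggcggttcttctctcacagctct
Mertk: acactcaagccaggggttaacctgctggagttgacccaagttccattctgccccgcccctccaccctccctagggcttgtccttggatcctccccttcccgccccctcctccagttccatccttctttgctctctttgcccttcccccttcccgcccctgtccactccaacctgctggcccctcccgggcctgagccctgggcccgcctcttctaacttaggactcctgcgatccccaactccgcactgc

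GAGGAA or its reverse complement was found in Marco, Cd5l, C1qb and C1qc, 4 of 8 members, and in 23.3% of the 32851 windows of the table. TGCTGA or its reverse complement was found in Spic, Timd4, Cd5l and C1qb, again 4 of 8, and in 16.1% of all windows. At least one of both was present in 6 of the 8 members and in 35.7% of all windows. These 6 are those of the 8 that fell (C1qa, the seventh that fell, and Vcam1 were not searched). Joining both motifs was not planned, and earlier results of these data were known. This overlap is therefore a description only, and a link with the falls was not tested. Mertk and Dnase2a, which did not pass, held neither in these exact letters. Their windows were richer in G and C (63.6% and 62.4%, against 44.8% to 55.2% in the other 6 and a median of 52.4% over the table). GGAA with other letters before it was not searched, and the Spic and Mertk stretches above hold GGAA or its reverse complement TTCC. The Dnase2a window, not shown, holds such letters too. The split between members with and without a match therefore depends on the letters searched. In Cd5l both orientations of the MAF core stand next to each other, 54 and 46 bases before the start. In C1qb the GAGGAA lies 30 bases before the start. The GATA motif in the form AGATAA, the E-box and the AP-1 motif, held by 10%, 6.0% and 4.5% of all windows, were found in 0 of the 8. Forms of the GATA motif that begin with T were not searched, and the Cd5l and C1qb stretches above hold such forms. The 0 for AGATAA therefore does not mean that GATA motifs are absent from these windows. Such matches describe letters and are not evidence of binding.

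Spic, the transcription factor of the set, changed most. It read 6.33, 5.78 and 5.97 in control replicates 1, 2 and 3 and 4.57, 3.87 and 4.23 in labelled knockout replicates 1, 2 and 3. The lowest control was thus more than 1 log2 unit above the highest liver labelled knockout. The fall was 3.49-fold (log2 fold change −1.80, SE 0.20, limma adjusted p = 0.00911), and it was −1.56 against control replicate 2 alone. All 3 livers labelled knockout lay between the lower quartile and the median of the array, replicate 2 close to the quartile, and no detection call against background was used here. The Spic stretch shown above holds a TGCTGA 198 bases before the start.

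Timd4 and Mertk encode receptors for dying cells, and they differed in size of response. TIM-4 binds phosphatidylserine directly, the signal on expelled nuclei and apoptotic cells. Timd4 read 6.88, 6.74 and 6.75 in control replicates 1 to 3 and 5.64, 4.99 and 5.29 in labelled knockout replicates 1 to 3. It fell 2.79-fold (−1.48, SE 0.16, limma adjusted p = 0.00827), with controls close together and the livers labelled knockout spread more widely, and it was −1.43 against control replicate 2 alone. MERTK is a receptor tyrosine kinase that reaches phosphatidylserine through the bridging proteins GAS6 and protein S. Mertk read 7.07, 7.04 and 6.96 in control replicates 1 to 3 and 6.87, 6.80 and 6.74 in labelled knockout replicates 1 to 3. Its difference of −0.22 (SE 0.09) did not pass (limma adjusted p = 0.180; −0.24 against control replicate 2 alone), although the lowest control, replicate 3, stood just above the highest liver labelled knockout, replicate 1.

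The scavenger receptor MARCO, which binds bacteria and particles, and CD5L, a secreted protein that protects macrophages from apoptosis, were both lower. Marco read 6.09, 5.86 and 6.25 in control replicates 1 to 3 and 4.95, 4.89 and 5.02 in labelled knockout replicates 1 to 3. The livers labelled knockout lay close together (SD 0.07, n = 3), and the fall was 2.17-fold (−1.12, SE 0.12, limma adjusted p = 0.00813; −0.91 against control replicate 2 alone). Cd5l read 5.40, 4.92 and 5.62 in control replicates 1 to 3 and 3.80, 4.27 and 3.88 in labelled knockout replicates 1 to 3. Here labelled knockout replicate 2 was the highest of its group, unlike for Spic and Timd4, where it was the lowest. Labelled knockout replicates 1 and 3 lay close to the lower quartile of the array (3.72), so the order of these dim values is uncertain. The fall was 2.52-fold (−1.33, SE 0.19, limma adjusted p = 0.0141), and −0.94 against control replicate 2 alone, which was the lowest control.

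The 3 chains of C1q, the recognition part of the first complement component, are encoded by neighbouring genes on chromosome 4, in the order C1qb, C1qc, C1qa between Gm31536 and Epha8. All 3 fell, C1qa by less than the others. C1qb read 9.71, 9.39 and 9.40 in control replicates 1 to 3 and 8.54, 7.89 and 8.25 in labelled knockout replicates 1 to 3, a 2.42-fold fall (−1.27, SE 0.17, limma adjusted p = 0.0126). C1qc read 7.94, 7.29 and 7.47 and then 6.66, 5.87 and 6.24 on the same arrays, a 2.48-fold fall (−1.31, SE 0.23, limma adjusted p = 0.0217). In both genes control replicate 1 was the highest array and labelled knockout replicate 2 the lowest. C1qa read 7.38, 7.17 and 7.13 in control replicates 1 to 3 and 6.58, 6.65 and 6.60 in labelled knockout replicates 1 to 3, a 1.53-fold fall (−0.62, SE 0.10, limma adjusted p = 0.0173). The 3 livers labelled knockout were nearly level in C1qa (SD 0.04), without the low value of replicate 2. Against control replicate 2 alone the differences were −1.16 for C1qb, −1.03 for C1qc and −0.56 for C1qa.

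Dnase2a, the gene of the lysosomal nuclease that digests engulfed nuclei, read 6.87, 7.34 and 7.35 in control replicates 1 to 3 and 6.80, 6.28 and 6.81 in labelled knockout replicates 1 to 3. Control replicate 1 lay almost level with labelled knockout replicates 1 and 3, and the groups were apart by a margin far under their spread. The difference of −0.56 (SE 0.19) did not pass (limma adjusted p = 0.120), and it was −0.71 against control replicate 2 alone.

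Vcam1, whose product anchors the erythroblast, read 10, 9.94 and 10.10 in control replicates 1 to 3 and 10.43, 10.15 and 10.46 in labelled knockout replicates 1 to 3. Labelled knockout replicate 2 was only just above the highest control. The difference of 0.33 (SE 0.11) did not pass (limma adjusted p = 0.124; 0.40 against control replicate 2 alone). VCAM1 is also made by endothelium and by mesenchyme, and markers of both read higher on the same arrays. Of 14 mesenchymal markers 4 rose and 0 fell (median 0.45), with list medians of 0.26 to 0.57 above the control mean in the livers labelled knockout and −0.10 to 0.06 in the controls. Of 12 pan-endothelial markers 4 rose and 0 fell (median 0.40), at 0.25 to 0.57 in the livers labelled knockout and −0.08 to 0.08 in the controls. Set against the median deviation of these lists array by array, which was added after the values were seen, Vcam1 differed by −0.13 from the mesenchymal markers without overlap, as 66.4% of all genes did in that direction, and by −0.08 from the pan-endothelial markers with overlap, where 61.4% of all genes were lower without it. The markers that rose were Pdgfra (1.16), Col1a2 (0.70), Pdgfrb (0.56) and Vim (0.42), and Emcn (1.00), Flt1 (0.65), Pecam1 (0.63) and Cdh5 (0.53).

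**Figure D2:**
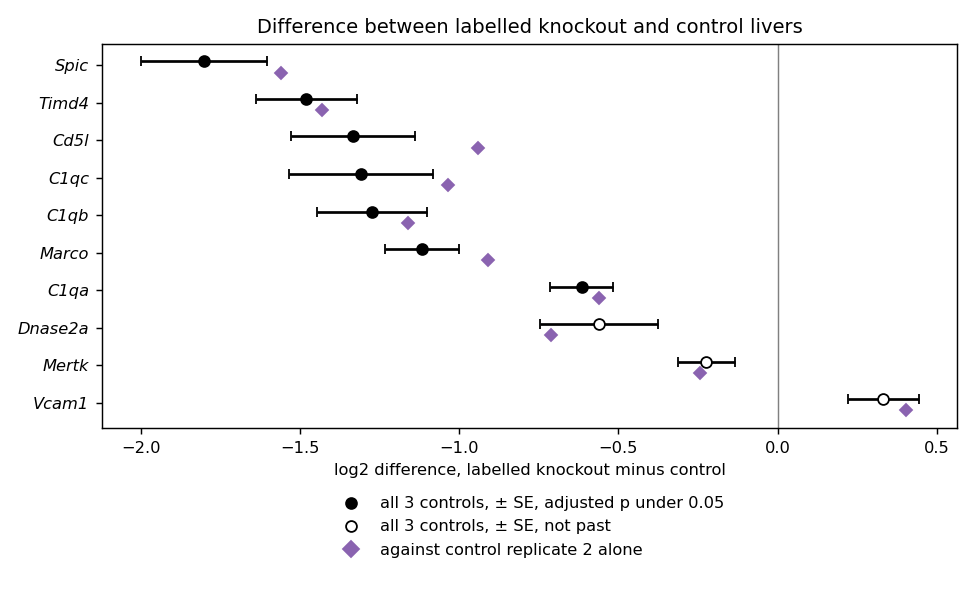
Log2 difference, labelled knockout minus control, of each gene with all 3 controls (circles ± SE, filled where the limma adjusted p was under 0.05) and against control replicate 2 alone (diamonds). Filled circles run from −1.80 for Spic to −0.62 for C1qa, and each diamond has the sign of its circle.

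Single arrays decided many of these calls. With 1 array left out the log2 fold change of Spic lay between −1.98 and −1.63, that of Cd5l between −1.53 and −1.18 and that of Dnase2a between −0.72 and −0.38. Marco passed in all 6 fits that left out 1 array, Spic, Timd4 and C1qb in 5, Cd5l in 4, and C1qa and C1qc in 3. Without control replicate 3 the count of genes past the threshold fell from 7 to 1, Marco, and 0.0687% of all genes were lower past it. In that fit Spic and Timd4 both had a limma adjusted p of 0.0536, with SEs of 0.24 and 0.19. Without labelled knockout replicate 3 the count was 4, with Spic, Timd4, Marco and C1qb past the threshold, and 0.374% of all genes were lower past it. With a sex term taken from Xist none of the 10 passed, although 8 of the 10 were lower at an unadjusted limma p under 0.05, as were 1619 of the 23279 genes. Control replicate 2 is the only control with high Xist. The sex-term differences, and those on the 4 high-Xist arrays alone, therefore repeat the differences against that array. They are not separate checks, and they hold no spread between controls of that Xist state. With the sex term the log2 fold changes of Spic and Timd4 were −1.56 and −1.43 (limma adjusted p = 0.154 for both), and that of Cd5l was −0.94 (limma adjusted p = 0.174). No gene of the 10 changed sign in these fits.

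**Figure D3:**
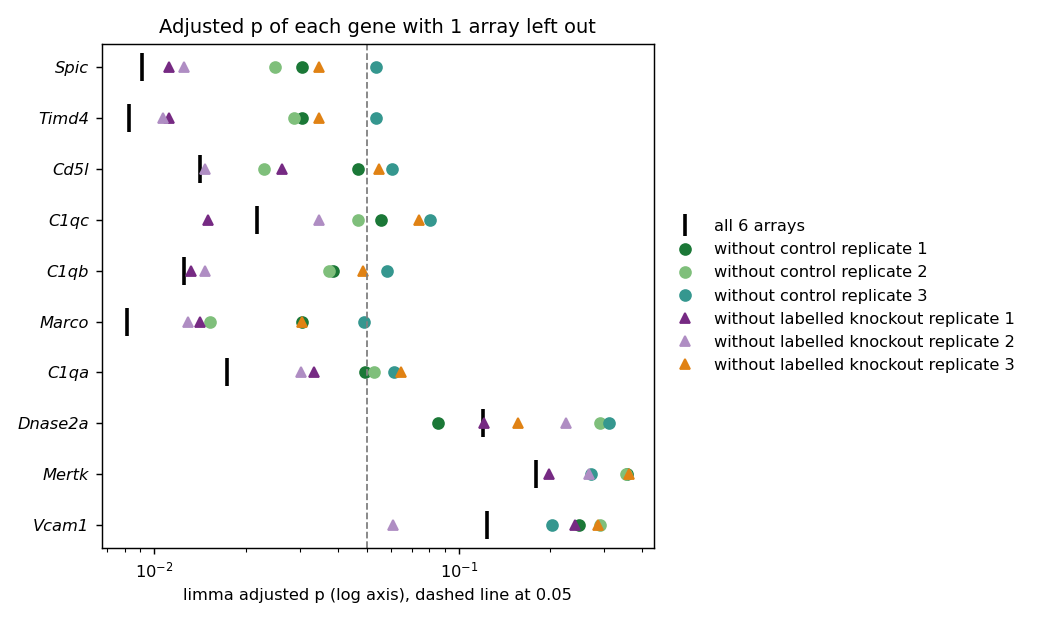
Limma adjusted p (log axis) of each gene with all 6 arrays (black bar) and with 1 array left out (circles for controls, triangles for livers labelled knockout), with a dashed line at 0.05. Without control replicate 3, Marco alone is left of the line (0.0490), and Dnase2a, Mertk and Vcam1 stay right of it in every fit.

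Markers of macrophages in general were lower on the same arrays. Among 19 such genes, 11 passed as lower, 0 as higher and 8 missed the threshold, against 2.77% of all genes lower, with a median of −0.77 (−0.69 against control replicate 2 alone). The list stood at −0.68, −1.10 and −0.80 in labelled knockout replicates 1, 2 and 3 and between −0.18 and 0.22 in the controls. Mpeg1, a pore-forming protein of phagocytes, had a log2 fold change of −1.56, the F4/80 antigen gene Adgre1 of −1.45, the CSF1 receptor gene Csf1r of −1.33, the cathepsin gene Ctss of −1.24, the mannose receptor gene Mrc1 of −1.06 and the fractalkine receptor gene Cx3cr1 of −0.77, all past the threshold. The count of falls was 3 without control replicate 3, and 6 without control replicate 1 or labelled knockout replicate 3. Several of the 19 genes are also active in granulocytes or mast cells, whose own markers are given below, and their part was not tested. In whole liver, fewer macrophages and less of these transcripts per macrophage cannot be told apart.

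The levels of the 10 genes relative to other cell markers were then compared array by array. This was added after the values were seen and run in 4 forms. The forms did not give one answer except for Spic, Mertk, Vcam1 and Cd5l. Cd5l read lower with overlap in each form used. In the first, the median deviation of the 19 macrophage markers from their control mean was subtracted from that of the gene. Spic then stood between −0.07 and 0.07 in the controls but between −0.77 and −1.06 in the others. Timd4 (difference −0.60), C1qb (−0.40) and C1qc (−0.43) were lower without overlap too, whereas Marco (−0.24), Cd5l (−0.45), C1qa (0.26) and Dnase2a (0.32) overlapped. Mertk (0.66) and Vcam1 (1.21) were higher without overlap, as were 92.1% of all genes, and 0.176% were lower.

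In the second form each array was centred on the raw median of the same markers. Spic (−0.64) was then the 1 member lower without overlap (0.0473% of all genes), and Timd4 (−0.32), C1qb (−0.11) and C1qc (−0.15) overlapped. Mertk (0.94), Vcam1 (1.496), Dnase2a (0.60) and C1qa (0.55) were higher without overlap, as were 96.6% of all genes, while Marco (0.05) had turned positive and overlapped, as did Cd5l (−0.17). In the third form, against the median deviation of the erythroid markers, Spic (−0.99), Timd4 (−0.67) and Marco (−0.30) were lower without overlap (0.125% of all genes) and Mertk (0.59) and Vcam1 (1.15) higher (91.1%). C1qb (−0.46), C1qc (−0.50), Cd5l (−0.52), C1qa (0.20) and Dnase2a (0.25) overlapped there. In each of these forms a gene without overlap had a two-sided exact permutation p of 0.1, the smallest that 3 arrays against 3 allow. The fourth form, limma on the arrays of the second, called 98.1% of all genes higher and is not used. Whether Timd4, C1qb and C1qc stood apart from the macrophage markers therefore depended on how those markers were summarised, and Marco overlapped in both macrophage forms.

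**Figure D4:**
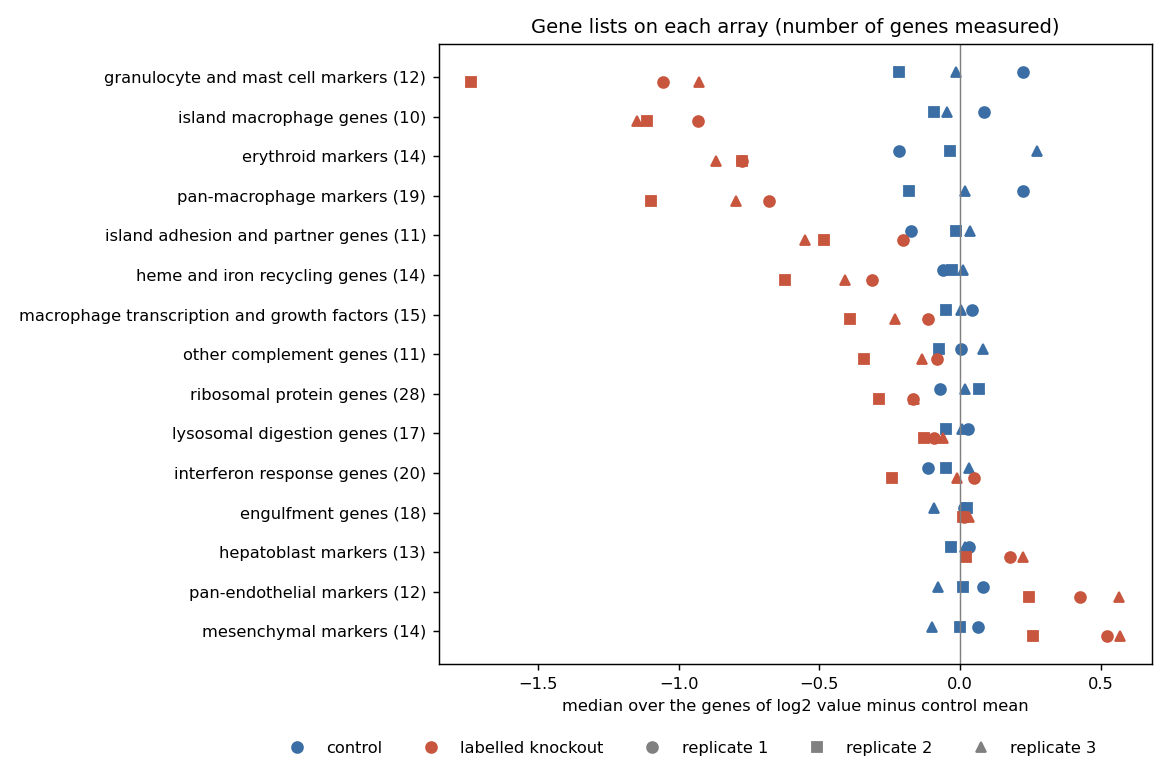
For each gene list (number of genes measured), the median deviation of its genes from their control means (log2 units), on each array (blue controls, red livers labelled knockout; marker shape gives the replicate). The island macrophage genes stand between −1.15 and −0.93 in the livers labelled knockout, near the granulocyte, erythroid and pan-macrophage lists and opposite the endothelial and mesenchymal ones.

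The regulators of macrophage identity changed unevenly. Of 15 measured transcription and growth factors, 4 fell, 1 rose and 10 did not pass (median −0.29). Nr1h3, the oxysterol receptor LXR alpha, fell (−1.11, SE 0.13, limma adjusted p = 0.00960). Spi1, which encodes PU.1, the factor needed for all myeloid cells, fell (−1.06, SE 0.17, limma adjusted p = 0.0180), as did Csf2rb (−1.15) and Maf (−0.48), whose product reads the TGCTGA core. Id3 rose (0.58). Bach1, the heme-sensitive repressor of Spic, differed by 0.17 (limma adjusted p = 0.351), and the growth factor gene Csf1 by 0.15 (limma adjusted p = 0.579).

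On the erythroblast side of the island, the gene of the VLA-4 alpha chain Itga4 (−0.52, limma adjusted p = 0.0670) and that of its beta chain Itgb1 (0.11, limma adjusted p = 0.552) did not pass. Of 11 adhesion and partner genes 2 fell (0 in the fits without control replicate 2 or 3 or labelled knockout replicate 2 or 3, and 5 without labelled knockout replicate 1), Icam4, an erythroid ligand of integrins (−0.91, SE 0.18, limma adjusted p = 0.0299), and Klf1, the red cell transcription factor that island macrophages also express (−0.80, SE 0.15, limma adjusted p = 0.0256). The other 9, among them Maea (0.14) and the integrin gene Itgb3 (−0.87, limma adjusted p = 0.0698), did not pass. They include the macrophage surface genes Siglec1 (−0.55, limma adjusted p = 0.218) and Cd163 (−0.09, limma adjusted p = 0.687). In both of these the groups overlapped, and Cd163 was dim, with group means of 3.61 in the controls and 3.52 in the livers labelled knockout. Of 14 erythroid markers 7 fell and 0 rose, with a median of −0.80 and list values of −0.77 to −0.87 in the livers labelled knockout. Tal1 (−0.98), Nfe2 (−0.89), Epor (−0.83) and Klf1 had the smallest p there.

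Of 18 other engulfment genes, 4 fell, 0 rose and 14 did not pass, beside 2.77% of all genes lower, and the median was 0.02, which turned to −0.15 when arrays were centred on hepatoblast markers. The genes that fell were Pros1, encoding the MERTK ligand protein S (−0.67, SE 0.10, limma adjusted p = 0.0142), the endothelial receptor gene Stab2 (−1.30), and Rac2 (−0.83) and Dock2 (−0.91), which drive the leukocyte cytoskeleton. Gas6, the other MERTK ligand (−0.42, limma adjusted p = 0.368), and Axl, a relative of MERTK (0.39, limma adjusted p = 0.0521), did not pass.

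Among lysosomal digestion genes 2 of 17 fell, 0 rose and 15 did not pass, with a median of −0.10 that became 0.10 when arrays were centred on ribosomal protein genes. Pld4, a lysosomal nuclease of phagocytes that degrades single-stranded nucleic acids, fell (−1.32, SE 0.20, limma adjusted p = 0.0153), and the protease gene Lgmn also (−0.63, SE 0.14, limma adjusted p = 0.0401). Ctsd (−0.33) and Ctsb (−0.38) did not pass. Interferon response genes were examined because undigested DNA induces them when DNase II is missing. Of 20 measured, 0 passed by limma in either direction, 2 were higher and 1 lower at an unadjusted p under 0.05, and the median was −0.09 (0.10 when centred on ribosomal protein genes). Ifnb1 (−0.22, limma adjusted p = 0.367) and Isg15 (−0.02, limma adjusted p = 0.957) were both in the lowest part of the scale, with group means of 3.23 and 3.45 for Ifnb1 and 3.90 and 3.93 for Isg15, so a response may not be detectable there. Ifnar1 (0.37), Usp18 (−0.90), Oasl2 (0.30) and Ccl5 (0.23) did not pass.

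Genes for handling heme and iron, the load that comes with engulfed red cells, numbered 14, of which 7 fell, 0 rose and 7 did not pass (median −0.40; −0.48 against control replicate 2 alone). The iron exporter ferroportin, Slc40a1, fell (−1.14, SE 0.13, limma adjusted p = 0.00932), as did the phagosomal metal transporter gene Slc11a1 (−1.66, SE 0.23, limma adjusted p = 0.0132), the biliverdin reductase gene Blvra (−0.89, SE 0.15, limma adjusted p = 0.0213) and heme oxygenase Hmox1 (−1.06, SE 0.19, limma adjusted p = 0.0246). Hp (−1.57), Blvrb (−0.74) and Nfe2l2 (−0.37) fell as well. Several of these genes are also active in erythroblasts or hepatoblasts. The count of 7 was 0 without control replicate 3, 2 without control replicate 2 or labelled knockout replicate 3, and 4 without control replicate 1 or labelled knockout replicate 2.

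Outside C1q, 1 of 11 complement genes fell and 0 rose. It was Cfp, encoding properdin, which leukocytes release (−1.10, SE 0.11, limma adjusted p = 0.00740). C4b (−0.37), the C1q-associated receptor gene Cd93 (0.42) and the C1 inhibitor gene Serping1 (0.39) did not pass. Of 12 granulocyte and mast cell markers 10 fell and 0 rose (median −1.27), led by the smallest p-values of Cpa3 (−1.76), S100a9 (−1.20), Ms4a3 (−1.72) and Ctsg (−0.67). Of 13 hepatoblast markers 0 passed by limma, 4 were higher and 0 lower at an unadjusted p under 0.05, and the median was 0.12 (−0.05 when centred on those markers themselves). Krt18 (0.50), Hnf4a (0.36), Fgb (0.35) and Dlk1 (0.35) had the smallest p there. Among 28 ribosomal protein genes 0 passed by limma, 7 were lower and 0 higher at an unadjusted p under 0.05 (median −0.19), with the smallest p for Rpl8 (−0.33), Rps15 (−0.45), Rps14 (−1.22) and Rps23 (−0.37). With the dimmest 50% of genes left out, 18 of the 28 remained, so the list used for centring includes dim genes. The part of these cell types in the results was not tested.

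Counts of these lists rested on single arrays as well. Without control replicate 3, 1 granulocyte or mast cell marker, 1 erythroid marker and 1 complement gene outside C1q were lower past the threshold, and 0 genes of the transcription factor, adhesion, engulfment, lysosomal, mesenchymal and endothelial lists passed. Without labelled knockout replicate 3 the counts lower were 4 for the granulocyte and mast cell list, 3 for the erythroid list, 1 each for the transcription factor and engulfment lists and 0 for the lysosomal list. Without control replicate 1 they were 1 for the granulocyte and mast cell list, 1 for transcription factors, 2 for engulfment and 1 for lysosomal genes. Without control replicate 2 they were 3 for both the granulocyte and the erythroid list, 2 for transcription factors and 1 each for engulfment and lysosomal genes. Without labelled knockout replicate 2 they were 4 for the erythroid list, 2 for engulfment and 1 for lysosomal genes, and 3 hepatoblast markers passed as higher. Without labelled knockout replicate 1, 3 ribosomal protein genes passed as lower. The mesenchymal count of genes that rose was 0 without control replicate 2 or 3 or labelled knockout replicate 3 and 1 without control replicate 1. The endothelial count was 0 without control replicate 2 or 3, 1 without labelled knockout replicate 3 and 2 without control replicate 1 or labelled knockout replicate 1. With the sex term 0 genes of the whole table were lower past the threshold, so no fall in these lists passed there (1619 genes were lower at an unadjusted p under 0.05 by limma).

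Across the 6 arrays, the genes most like the median profile of the 10, by the smallest root mean square distance of values centred on their own mean, were Psd4 (0.08), Plcb2 (0.09), Unc93b1 (0.10), Mc2r (0.10) and Pik3ap1 (0.10, all in log2 units). Their log2 fold changes lay between −0.88 for Pik3ap1 and −1.22 for Unc93b1. The genes closest to Spic were Clec4a1 (0.14), Slc11a1 (0.15), Mpeg1 (0.16), Igsf6 (0.17) and Adgre1 (0.21). Clec4a1 read 6.74, 5.80 and 6.25 in control replicates 1 to 3 and 4.78, 3.91 and 4.55 in labelled knockout replicates 1 to 3, with the same array highest and lowest in each group as Spic. Among the 10 members, control replicate 1 was the highest control for 6 and control replicate 2 for 0, and labelled knockout replicate 2 was the lowest of its group for 7.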

How the data were processed

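Per the submitters' processing notes, RMA was used; the deposited numbers lie on the log2 scale, as left by the authors after background correction, quantile normalisation and probe summary. Its version and the chip definition are not stated in these sources. After sorting, all 6 arrays held the same values, which hides any shift shared by most genes, and precision is limited by how few arrays there are. Of 24479 features, 23281 were named (23156 by a GRCm38.p6 RefSeq table through their gene identifiers, 125 by the platform annotation alone), and 1198 were not. For 2 genes with several features the brighter was kept, leaving 23279. Columns without a sample numbered 0.

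Livers labelled knockout were compared with controls by limma 3.58.1 in R 4.3.3 (lmFit, eBayes, no covariate, no filter), with Benjamini-Hochberg adjustment over all genes and a threshold of 0.05; the test was tried on simulated data. Errors are moderated standard errors. Members and the 14 other lists (242 entries) were chosen with earlier results of these data known, and list genes without a matching feature were not analysed here. The list genes named are the up to 4 with the smallest p of each list and some preset ones. Bach1, Csf1, Csf2rb, Maea, Siglec1, Cd163, Hp, Blvrb and Nfe2l2 fall outside that rule and were chosen after their values were seen. The planned comparison of C1q protein sequences was not run. Alternatives were other variance models, filters, scalings, thresholds and array weights, a block for the replicate number, a sex term and leaving out arrays. Levels relative to macrophage, erythroid, mesenchymal and endothelial markers were added after the data were seen, and each form run is given.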

Additional observations from a re-analysis of the deposited data

How the results depend on the processing

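The 7 falls were also found with a variance trend, robust eBayes, the dimmest 25% of genes left out, array weights and the replicate block. They were found too with renewed quantile normalisation, a looser threshold of 0.1, a fold change of at least 1.5 and averaged features. Those settings could hardly lower the count. Genes past 0.05 also pass 0.1, and the smallest of the 7 falls was 1.53-fold. The arrays already held the same sorted values, and averaging left the 10 log2 fold changes as they were. The count was 6 with arrays centred on ribosomal protein genes and 8 with hepatoblast markers. The ribosomal centring gave all 10 genes the same SE of 0.24, so its counts take no account of how single genes spread. The count was 4 of the 7 genes still tested with the dimmest 50% left out. It was 0 with a sex term, a fit with fewer degrees of freedom, where limma left 8 of 10 lower at an unadjusted p under 0.05. There and on the high-Xist arrays alone the differences rest on control replicate 2 as the only high-Xist control. No count is given for the high-Xist arrays. The count ranged from 1 to 7 with 1 array left out. The median of −1.19 became −0.62 with the dimmest 50% left out, since 3 of the genes drop out, −0.995 and −1.37 with the ribosomal and hepatoblast centring, and −0.93 with a sex term or high-Xist arrays alone; with 1 array left out it ran from −1.27 to −1.09. Over all genes, 836 were higher and 644 lower. These counts were 1062 and 193 with the ribosomal and 384 and 2099 with the hepatoblast centring, which shift the median of all genes by 0.19 and −0.18. Lower calls then made up 15.4% and 84.5% of all calls. The counts higher and lower were 405 and 281 with the replicate block and 3 and 0 with a sex term (1640 and 1619 at an unadjusted limma p under 0.05). They were 1430 and 1270 at a limma adjusted p of 0.1, and 532 and 394 with the fold change minimum. With 1 array left out they ran from 25 to 785 and from 16 to 610. Over all genes, same-numbered arrays did not deviate together (correlations of −0.05, −0.01 and −0.08 for numbers 1, 2 and 3). With so few arrays this does not settle whether the replicate numbers pair them. The block changed no call among the 10 genes. Signal over background was not used here, which limits what can be said of dim genes such as Spic and Cd5l in the livers labelled knockout. The cause of these changes was not tested unless named.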
